A study of Mus musculus with 2 samples.

Results

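The Reg genes encode small secreted proteins with a C-type lectin-like domain, and 7 of them, Reg1, Reg2, Reg3a, Reg3b, Reg3d, Reg3g and Reg4, were followed in CD133-positive and CD133-negative mouse gastric epithelial cells. They were taken by gene name from the non-control spots of the arrays, where Reg3b carries its older name Pap, and are 7 of 27672 genes with a symbol on the array. The family was chosen on the log2 ratio of CD133-positive over CD133-negative cells in these same arrays, so the ratios of its members are given as a description, with no test. The cells were GIF-5, a single gastric epithelial line of genotype Runx3-/-p53-/-, grown in DMEM with bovine serum, and both fractions carry that genotype. A suspension was stained with a PE-labelled antibody to CD133, the product of Prom1, and split by FACS. RNA of the CD133-positive fraction, in Cy3, was set against that of the CD133-negative fraction, in Cy5, on each of 2 arrays from Agilent.

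Reg proteins are best known from the pancreas and the gut. Reg1, also called lithostathine or pancreatic stone protein, is abundant in exocrine secretions of the pancreas, and REG1 is expressed in inflamed and regenerating gastric mucosa. Reg3b and Reg3g are antibacterial lectins that the intestinal epithelium secretes into the lumen, where they limit contact between bacteria and the mucosa, and their genes respond to interleukin 22 through Stat3 and to microbial signals through Myd88.

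Per the labels the arrays are biological replicates, but separate cultures or sorts are not mentioned, so the spread between them, and with it every p-value, covers only these samples. Both arrays had the same dye orientation, lay on 1 slide and share a scan time, so a dye effect and the fraction cannot be told apart. Between 23498 and 25213 of 43379 non-control spots per channel were well above background by the flag of the scanner program, and no spot was saturated. In the CD133-negative fraction the Prom1 probe stayed at background on both arrays, so Prom1 was at least 12.0-fold higher in CD133-positive cells, with measured log2 ratios of 3.83 and 3.73. Because RNA was measured in bulk, fewer cells that make a transcript and less of it per cell cannot be told apart.

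Of the 7 genes, 3, Reg1, Reg3b and Reg3g, stood above background in the CD133-positive fraction on both arrays and were brighter there than in CD133-negative cells. In CD133-negative cells Reg3g was above background on both arrays, and Reg1 and Reg3b on array 1 only. The other 4, Reg2, Reg3a, Reg3d and Reg4, stayed at background in both fractions and on both arrays. All 3 detected genes were much dimmer in the CD133-positive cells of array 2 than in those of array 1, while Prom1 was not. Of 15268 tested genes, 382, or 2.5%, were at least 2-fold higher in CD133-positive cells on both arrays, and all 3 tested Reg genes were among them, a count that follows from how the family was chosen. By limma, a linear model with a moderated variance, at an adjusted p under 0.05, 1.68% of tested genes differed in either direction and 1.4% were higher.

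Of the 7 genes, 6 lie together. The probes of Reg3b, Reg3d, Reg3a, Reg2, Reg1 and Reg3g follow each other in that order on chromosome 6 in the files, whose genome build is not named there, and no other named protein-coding gene lies between them in the RefSeq gene order. Reg4 lies alone on chromosome 3. The promoters of all 7 were found in a RefSeq table of the build GRCm38.p6. The 250 bases before the start are printed for the 3 detected genes and, for contrast, for their undetected neighbours Reg2 and Reg3d, since genes of 1 cluster with unlike signals are what the data turn on. They span chr6:78425733-78425982 (plus strand) for Reg1, chr6:78404905-78405154 (plus strand) for Reg2, chr6:78370635-78370884 (plus strand) for Reg3b, chr6:78468875-78469124 (minus strand) for Reg3g and chr6:78378866-78379115 (minus strand) for Reg3d. Sequences run 5′ to 3′ and end at the base before the start. Capitals mark the TATA box letters TATAAA and the E-box letters CACCTG on either strand.
Reg1: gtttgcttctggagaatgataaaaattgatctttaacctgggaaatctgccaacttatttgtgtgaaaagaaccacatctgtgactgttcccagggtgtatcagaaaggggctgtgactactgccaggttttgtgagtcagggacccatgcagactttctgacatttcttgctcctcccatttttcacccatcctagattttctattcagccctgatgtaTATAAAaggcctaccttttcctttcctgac
Reg2: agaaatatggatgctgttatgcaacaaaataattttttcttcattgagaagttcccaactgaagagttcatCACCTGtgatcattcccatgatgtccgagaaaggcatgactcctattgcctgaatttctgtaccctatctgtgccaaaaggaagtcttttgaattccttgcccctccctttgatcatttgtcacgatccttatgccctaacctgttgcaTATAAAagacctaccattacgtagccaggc
Reg3b: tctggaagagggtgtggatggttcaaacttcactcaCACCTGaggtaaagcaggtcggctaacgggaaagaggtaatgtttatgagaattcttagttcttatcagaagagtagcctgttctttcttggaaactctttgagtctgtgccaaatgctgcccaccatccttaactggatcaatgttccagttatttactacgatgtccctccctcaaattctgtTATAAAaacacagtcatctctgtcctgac
Reg3g: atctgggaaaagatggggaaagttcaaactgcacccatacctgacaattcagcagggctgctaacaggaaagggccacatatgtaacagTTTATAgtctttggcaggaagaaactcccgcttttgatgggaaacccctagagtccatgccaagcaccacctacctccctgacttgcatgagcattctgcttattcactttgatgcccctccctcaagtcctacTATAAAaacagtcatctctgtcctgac
Reg3d: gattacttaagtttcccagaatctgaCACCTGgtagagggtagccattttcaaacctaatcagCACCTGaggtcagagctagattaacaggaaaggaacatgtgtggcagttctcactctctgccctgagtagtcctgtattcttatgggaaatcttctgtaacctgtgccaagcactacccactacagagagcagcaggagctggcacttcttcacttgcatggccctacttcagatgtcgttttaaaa

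The 3 detected genes each held TATAAA close to the start, on the strand of the gene. The match began 30 bases before the start in Reg1, 29 in Reg3b and 27 in Reg3g. Undetected Reg2 also held it, 30 bases before the start, whereas Reg3a, Reg3d and Reg4 had no match in this window. In Reg3g a further match lay on the opposite strand, 161 bases before the start. Across the table, 12.4% of 32851 promoters of this length held TATAAA at any position on either strand, against 4 of the 7 Reg promoters. The Reg promoters are related copies and not independent cases. The share with a match close to the start on the strand of the gene was not counted.

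The E-box letters CACCTG were in 5 of the 7 Reg promoters, against 17.2% of all. They were absent from Reg1 and Reg3g and present once in Reg3b. Reg3d held them at 224 and 187 bases before the start. The STAT letters TTCNNNGAA, the pattern bound by Stat3 and its relatives, were in 7.02% of all promoters and in Reg3b and Reg3d, a detected and an undetected gene. The AP-1 letters TGANTCA (6.75% of all) were in Reg1 alone of the family, the GATA letters AGATAA (9.99%) in Reg4 alone, and the C/EBP letters TTGCNNAA (9.56%) in Reg2 and Reg3a. Both strands were searched for each motif, and no match of one motif was required to be clear of another.

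The promoters of Reg3b and Reg3g were the most alike of the 21 pairs. Their bases were identical in 68.4% of 253 aligned columns. They share the run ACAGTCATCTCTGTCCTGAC up to the start, which only these 2 of the 32851 promoters hold. The next pair was Reg1 and Reg2 at 56.9%, and the remaining pairs were between 44.9% and 52.7%. Sequence likeness did not go with detection throughout, since Reg1 was detected and Reg2 was not.

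**Figure D1:**
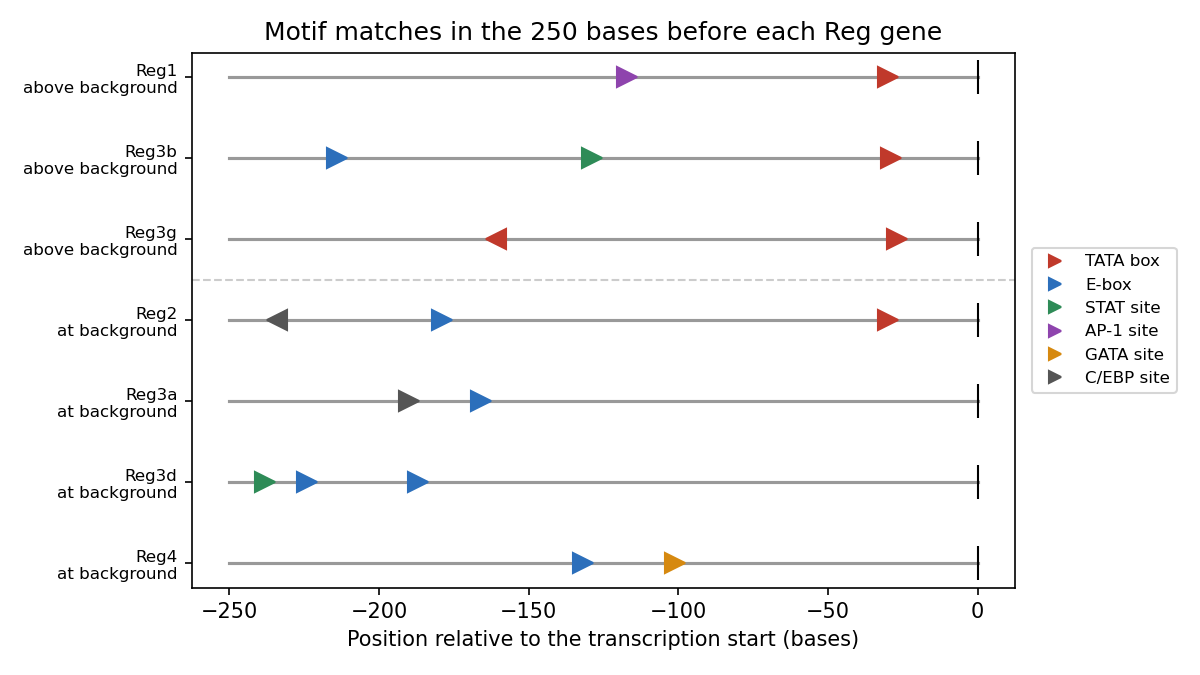
Matches to 6 motifs in the 250 bases before the transcription start of each Reg gene. The horizontal axis is the position relative to the start in bases, triangles point right for the strand of the gene and left for the opposite strand, and each colour is a motif. The TATA box lies 27 to 30 bases before the start in the 3 genes above background and in Reg2.

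Reg1 was bright in CD133-positive cells and near or at background in CD133-negative cells. Its spot intensity after subtraction of the background was 11832 in CD133-positive and 25.2 in CD133-negative cells on array 1. On array 2 it was 1060 in CD133-positive cells and 0.3 in CD133-negative cells, where the spot was not well above background. The fractions do not overlap, which is a description only, since the family was chosen on this contrast and each fraction has 2 values. How many other genes do the same was not counted. CD133-negative cells had a measurable signal on 1 of the 2 arrays only. After normalisation the log2 ratio was 8.36 on array 1 and 5.12 on array 2, a mean of 6.74 ± 2.29 (SD, n = 2). As folds these are 329 and 34.7. Set against the lowest signal that counts as above background, the fold on array 2 was 30.5, which is not a strict lower limit.

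Reg3g, which binds peptidoglycan of Gram-positive bacteria, was the member measured most firmly, because its probe was well above background in both fractions on both arrays. Its background-subtracted intensity was 5519 in CD133-positive and 203.2 in CD133-negative cells on array 1. On array 2 it was 1277.7 in CD133-positive and 51.3 in CD133-negative cells. Each CD133-positive value lies above both CD133-negative values, again as a description only. The log2 ratio was 5.77 on array 1 and 4.71 on array 2, with a mean of 5.24 ± 0.75 (SD, n = 2), or folds of 54.5 and 26.2.

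Reg3b, the pancreatitis-associated protein, was above background in CD133-positive cells on both arrays and in CD133-negative cells on array 1 only. Its background-subtracted intensity was 979.9 in CD133-positive and 20.7 in CD133-negative cells on array 1. On array 2 it was 88.6 in CD133-positive and 0.9 in CD133-negative cells, the latter not well above background. The fractions again do not overlap, with the same limit as for Reg1. The log2 ratio was 4.71 on array 1 and 1.78 on array 2, with a mean of 3.25 ± 2.07 (SD, n = 2). On array 2 the fold of 3.44 compares with one of 3.39 against the lowest signal above background, again not a strict lower limit.

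The other members stayed at background. Background-subtracted intensities of Reg2, a relative of Reg1 first described in the pancreas, were -0.7 and -2.9 in CD133-positive and CD133-negative cells of array 1, and -0.3 and -1.5 on array 2. For Reg3a they were -1.4 and -0.5 on array 1, and 0.5 and -4 on array 2. For Reg3d they were 0.8 and -3.9 on array 1, and -1.9 and -3 on array 2. These probes belong to the same cluster as the 3 bright ones and gave no sign of their signal. Reg4, the family member outside the cluster, gave 2.2 and 7.8 on array 1, and -0.8 and 3.8 on array 2, also not well above background. No fold is given for these 4 genes, and a probe at background does not show that a transcript is absent. Each gene had 1 probe and 1 spot per array, and probe sequences were not used here, so binding of a transcript to the probe of a close relative was not tested.

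**Figure D2:**
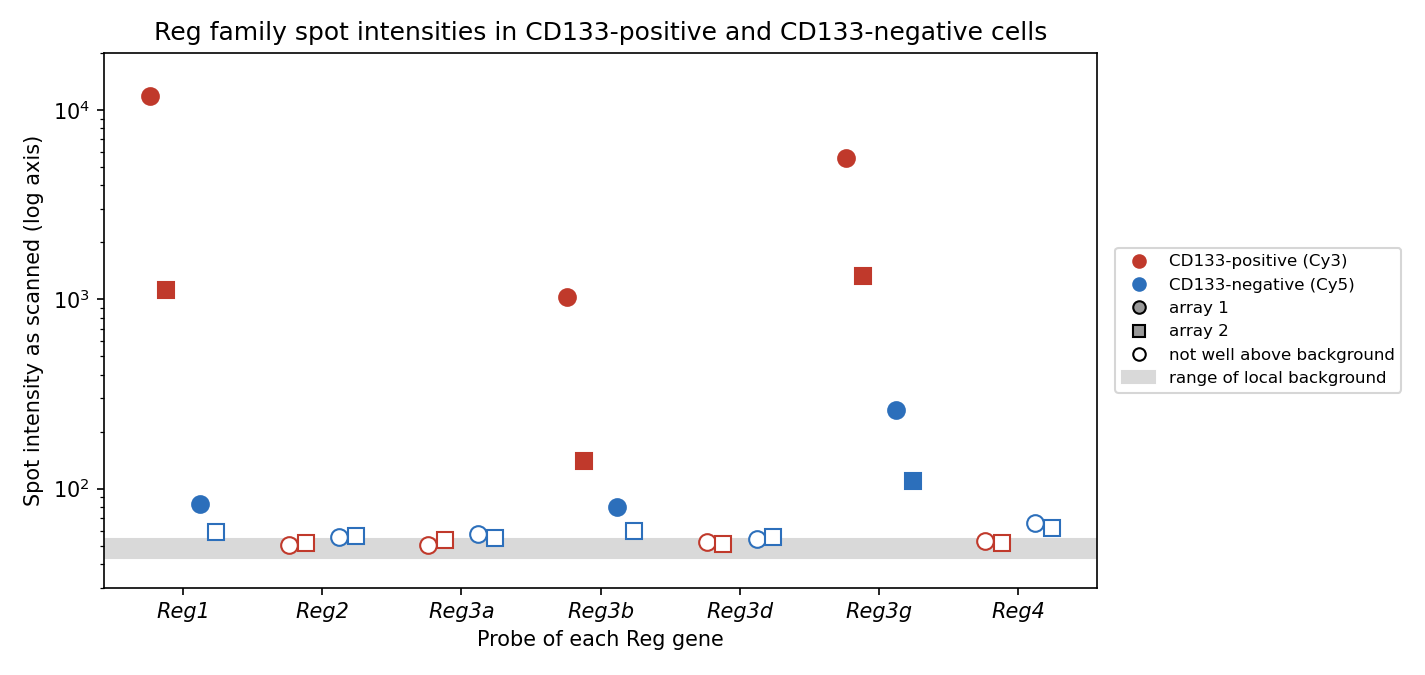
Spot intensity as scanned (log axis) of the probe of each Reg gene, in CD133-positive (red) and CD133-negative (blue) cells on array 1 (circles) and array 2 (squares), 1 spot each. Open symbols are not well above background and the grey band is the range of local background. Reg1, Reg3b and Reg3g are bright in CD133-positive cells on both arrays and the other 4 genes lie at background. Levels of different probes cannot be compared.

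Among 15268 tested genes ordered by mean ratio, Reg1 was 2nd, Reg3g 7th and Reg3b 66th from the top. The order was not the same on each array. On array 1 Reg1 had the highest ratio of all, with Reg3g 4th and Reg3b 13th. On array 2 they were 9th, 18th and 237th, where the ratios of Reg1 and Reg3b are set against CD133-negative spots not well above background. With the deposited processed signals Reg1, Reg3g and Reg3b were 1st, 25th and 10th on array 1, and 1st, 26th and 23rd on array 2, so the ranks of Reg3b and Reg3g depend on the signals used. Within the family, Reg1 exceeded Reg3g by more on array 1 (8.36 against 5.77) than on array 2 (5.12 against 4.71), so the order of Reg1 and Reg3g is the same on both arrays but their distance is not larger than the spread of Reg1. Reg3b was the lowest of the detected genes on both arrays.

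The spread between the arrays was unusual for Reg1 and Reg3b. The SD between the arrays was the 5th largest of all tested genes for Reg1 and the 9th largest for Reg3b, against a median of 0.18 over all tested genes. For Reg3g it was the 642nd largest. How far the ratios of Reg1 and Reg3b differ depends on how their dim CD133-negative spots are treated. With the deposited processed signals, which give spots at background a small positive value, the log2 ratios were 10.36 and 9.92 for Reg1, 7.13 and 6.33 for Reg3b, and 6.25 and 6.11 for Reg3g. They are larger than after background correction with an offset and nearer to each other, and Reg1 remained above Reg3b. The order of Reg3b and Reg3g turned, with Reg3b the higher of that pair on both arrays.

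**Figure D3:**
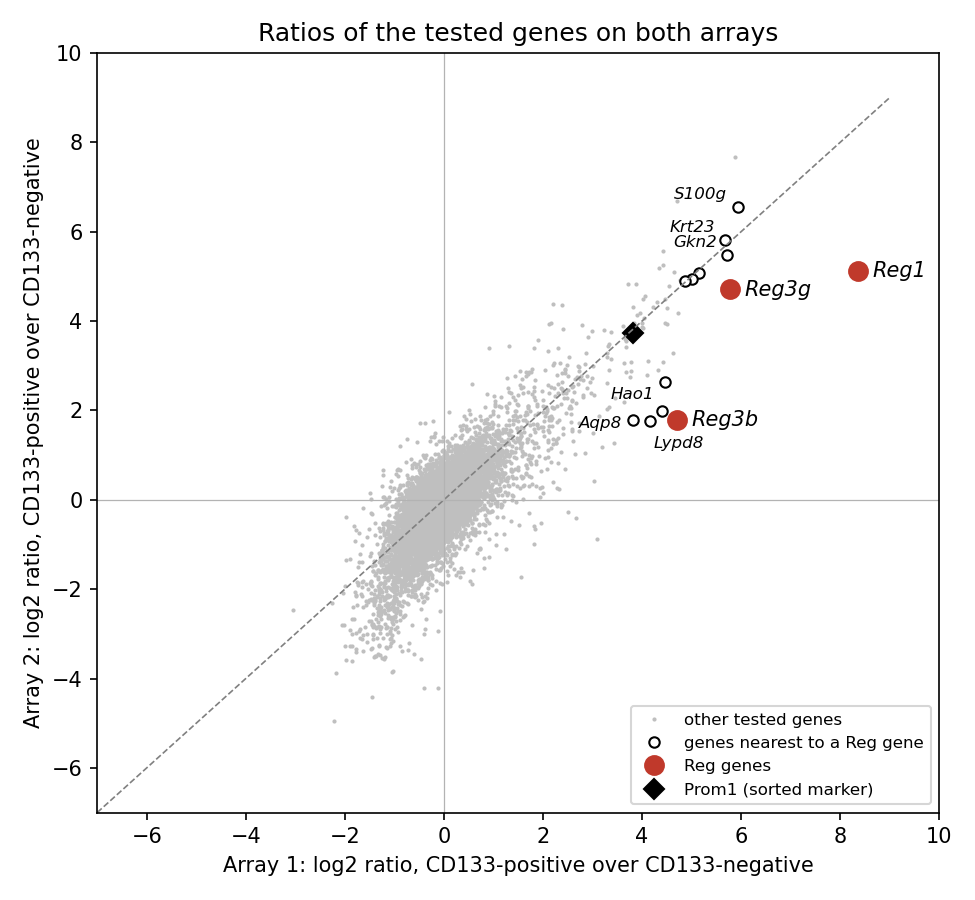
Log2 ratio of CD133-positive over CD133-negative cells on array 1 (horizontal) and array 2 (vertical) for each tested gene, with the 3 tested Reg genes in red, Prom1 as a black diamond and the genes nearest to a Reg gene as open circles. The dashed line marks equal ratios. Reg1 and Reg3b lie well to the right of the line, Reg3g slightly so, and Prom1 on it.

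The genes with the pair of ratios nearest to that of Reg3b were Hao1, Lypd8, Acss1 and Aqp8. Hao1, a peroxisomal hydroxyacid oxidase, was at 4.41 and 1.98. It was at background in CD133-negative cells and 7.74-fold higher against the lowest signal above background. Lypd8, a secreted protein that keeps flagellated bacteria from the colonic epithelium, was at 4.16 and 1.76. Acss1 is a mitochondrial acetyl-CoA synthetase and Aqp8 an aquaporin. The Euclidean distances of Hao1, Lypd8, Acss1 and Aqp8 over the 2 arrays were 0.36, 0.55, 0.89 and 0.90. Nearest to Reg3g were 0610040J01Rik, the gastrokine Gkn2, the aspartoacylase Aspa and the intestinal fatty acid binding protein Fabp2, at distances of 0.72, 0.76, 0.80 and 0.91. Reg1 had no close neighbour, the nearest being Gkn2 at 2.67, then the keratin Krt23 at 2.77, the calcium-binding protein S100g at 2.82 and 0610040J01Rik at 3.21. With 2 arrays this likeness is a description.

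The level of the Reg genes within a fraction also differed between the arrays. In raw background-subtracted intensity the CD133-positive signal on array 1 was 11.2 times that on array 2 for Reg1, 11.1 times for Reg3b and 4.32 times for Reg3g. After normalisation the log2 level on array 2 minus that on array 1 was -3.44 for Reg1, -3.03 for Reg3b and -2.05 for Reg3g in CD133-positive cells. All 3 were thus lower on array 2, by 10.9, 8.15 and 4.15 times. For Prom1 the difference was -0.17, and the median over all tested genes was -0.03, with a 5th percentile of -0.70.

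In CD133-negative cells the same difference was -0.99 for Reg3g, the 46th largest drop of all tested genes, so Reg3g was lower on array 2 in both fractions. It was -0.20 for Reg1 and -0.10 for Reg3b, whose background-subtracted CD133-negative intensities, 25.2 and 0.3 for Reg1 and 20.7 and 0.9 for Reg3b, were also lower on array 2 but small beside the offset of 50 added before the log. With processed signals, which have no such offset, the CD133-negative level of Reg3g was 3.27 times lower on array 2. For Reg1 and Reg3b it was 6.81 and 5.51 times lower, from array 2 spots that were not well above background. Of all tested genes, 36 were at least 4-fold lower in CD133-positive cells of array 2, and Reg1, Reg3b and Reg3g were the 3rd, 6th and 34th lowest. Among the other 379 genes at least 2-fold higher in CD133-positive cells on both arrays, the median difference was 0.05 and 9 were at least 4-fold lower on array 2. With processed signals the CD133-positive differences were 9.23, 9.63 and 3.60 times, and the ranks 33rd, 31st and 290th.

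Some markers of mucus-secreting cells were, like the Reg genes, much lower in CD133-positive cells of array 2, and others were not. Of the 6 tested goblet markers, 3 were at least 4-fold lower in CD133-positive cells of array 2, with a median difference of -2.03 over the 6. They were the chloride channel accessory protein Clca1 (-4.03), the mucus lectin-like protein Zg16 (-3.05) and the trefoil factor Tff3 (-2.60). The other tested goblet markers differed less, Spink4 by -1.46, Agr2 by -0.36 and Spdef by 0.05. Of the 6 tested gastric mucous markers, 2 were at least 4-fold lower, with a median of -1.24 and a range from -2.13 for Tff2 to -0.29 for Muc6. By contrast, none of the 10 tested enterocyte markers was, and their median was -0.28. Other genes at least 4-fold lower on array 2, named after their values were seen, include Entpd2, an ectonucleotidase (-3.25), Aqp8 (-2.84) and Lypd8 (-2.42). What makes the arrays differ was not tested.

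**Figure D4:**
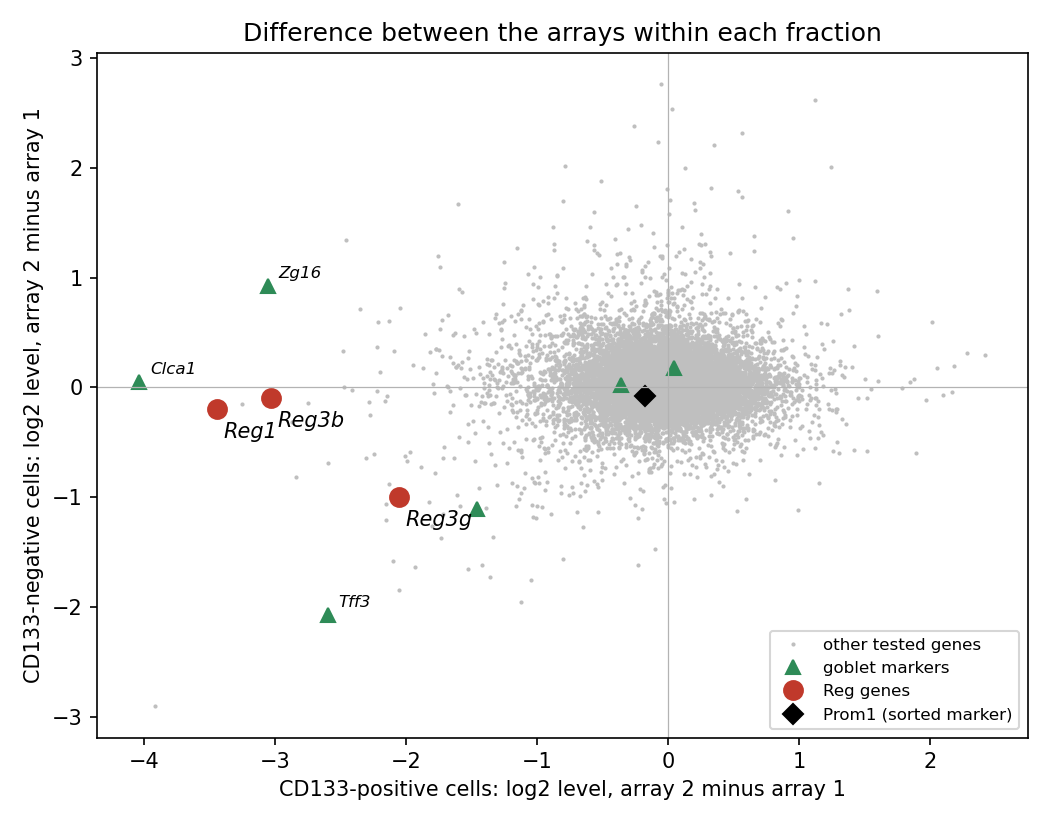
Log2 level on array 2 minus that on array 1 in CD133-positive cells (horizontal) and in CD133-negative cells (vertical) for each tested gene, with Reg genes in red, goblet markers as green triangles and Prom1 as a black diamond. Reg1, Reg3b and Reg3g lie at -3.44, -3.03 and -2.05 on the horizontal axis, with Clca1, Zg16 and Tff3 also far to the left.

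Reg genes are made by several cell types, so marker lists of those cells were read beside them. Of 20 acinar markers on the array, 11 were not well above background in any channel, among them the digestive enzyme genes Cpa1, Cpb1, Ctrc, Pnlip, Prss2, Amy2a5 and Cela2a. Of the 6 tested, 1 rose, the colipase gene Clps (2.68 ± 0.20, SE, limma adjusted p = 0.028). The amylase gene Amy1 was at 1.09 and 1.38 on arrays 1 and 2 but was not called (limma adjusted p = 0.061). Cel, Ctrl, Ctrb1 and Cela1 were at 0.12, 0.08, 0.04 and -0.52. The summed processed signal of the acinar list was 4001 and 2586 in CD133-positive cells of arrays 1 and 2, against 986 and 900 in CD133-negative cells. Among islet markers, 2 of 10 were tested, and Ins1, Gcg, Sst, Ppy and Iapp were not well above background anywhere. Among gut and gastric endocrine markers, 4 of 15 were tested and 9 were at background in all channels. All 4 were above 0 on both arrays, against 4972 of all 15268 tested genes, and none was called. Their largest mean was 1.16, for Slc18a1 (limma adjusted p = 0.11). The endocrine sums were 1020 and 976 in CD133-positive and 442 and 356 in CD133-negative cells. Among Paneth markers, 3 of 9 were tested, and Lyz1, Mmp7 and Itln1 were not above background anywhere. The 3 tested, the ribonuclease Ang4 and the defensins Defa3 and Defa20, were above background in both fractions on at least 1 array, at 0.16, -0.05 and -0.02 (limma adjusted p = 0.51, 0.86 and 0.95). The Paneth sums were 5909 and 6705 in CD133-positive and 6007 and 6559 in CD133-negative cells. The part of these cell types in the Reg signal was not tested.

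Markers of gastric and intestinal epithelium were present and several were higher with the Reg genes. Of the 6 tested gastric mucous markers, Gkn2 and the trefoil factor Tff1 rose, by 5.60 and 4.40 on the log2 scale (limma adjusted p = 0.0095 for each). Tff2, Gkn3, Gkn1 and Muc6 were not called, at 2.71, 1.53, 1.02 and 0.13 (limma adjusted p = 0.063, 0.094, 0.19 and 0.66). The summed signal of that list was 307360 and 123330 in CD133-positive cells and 9016 and 3618 in CD133-negative cells. Of the 6 tested goblet markers, Tff3 (4.21, limma adjusted p = 0.013) and Spdef rose, while Atoh1 and Retnlb were at background throughout. The arrays differed for Clca1, at -0.12 and -4.20, and for Zg16, at 3.09 and -0.88 (limma adjusted p = 0.27 and 0.55). The other 2, Spink4 and Agr2, were at 0.96 and 0.43 (adjusted p = 0.080 and 0.20). The goblet sums were 42272 and 6949 in CD133-positive cells of arrays 1 and 2 and 10087 and 9208 in CD133-negative cells. Above 0 on both arrays were 4 of the 6 genes, against 4972 of all 15268 tested genes. Of the 10 tested enterocyte markers, 3 rose, Fabp2, Apoa1 and Isx, with sums of 59252 and 44215 against 14909 and 14424. Fabp1, Vil1, Cdhr5 and Apoa4 were not called, at 1.39, 0.95, 0.60 and 0.59. Lct, Alpi and Anpep were at -0.07, -0.16 and -0.29, also not called, and Sis was at background throughout. Of all tested genes, limma called 1.4% higher in CD133-positive cells. The part of these cells in the Reg signal was not tested.

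Markers of cells outside the epithelium were mostly at background. Ptprc and Itgam, of blood cells, and Dcn, Lum, Pdgfra and Pdgfrb, of fibroblasts, were not well above background anywhere. Of the 4 tested endothelial markers, the clotting factor Vwf (3.75, limma adjusted p = 0.012) and the cadherin Cdh5 (adjusted p = 0.042) rose. The CD133-negative spots of Cdh5 were at background on both arrays, and it was 5.81-fold higher against the lowest signal above background. The other 2 were below 0 on both arrays, Esam at -1.07 and Eng, at background in CD133-positive cells, at -0.34 (limma adjusted p = 0.090 and 0.24). Pecam1, Kdr, Tek and Emcn were at background throughout. The summed endothelial signal was 4413 and 7098 in CD133-positive cells and 640 and 865 in CD133-negative cells. That sum was higher on array 2. The single genes were mixed, with array 2 minus array 1 in CD133-positive cells at 0.47 for Vwf, 0.88 for Cdh5, -0.39 for Esam and -0.15 for Eng.

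Few genes through which Reg proteins act or are induced passed the test. Of 23 genes of the Reg receptor and the interleukin 22, interleukin 6 and Stat3 route, 22 were on the array and 16 were tested. The median log2 ratio was -0.15, against -0.03 over all tested genes, and 1 of the 16 was called, against 1.68% of all genes. That was Lifr, a receptor chain for leukaemia inhibitory factor that signals through Stat3, with 2.54 on array 1 and 2.11 on array 2 (mean 2.32 ± 0.17, SE, limma adjusted p = 0.028). The call was lost when the probes of a gene were averaged.

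Extl3, a glycosyltransferase put forward as a receptor for Reg proteins, was at -0.05 (limma adjusted p = 0.86), with a sign that changed with the scaling. Stat3 itself was at 0.25 (adjusted p = 0.32), and Tyk2, a kinase of that route, at 0.97 (adjusted p = 0.067). Il6st, the shared receptor chain gp130, was at -0.60 and Jak1 at -0.57 (limma adjusted p = 0.11 and 0.12). Il22 and its receptor chain Il22ra1 were at background in all channels, as were Il6, Il17a and Osm. The other chain of the interleukin 22 receptor, Il10rb, was measured in both fractions, at -0.17 (adjusted p = 0.52).

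Innate sensors upstream of the antibacterial Reg genes were tested in 11 of 14 cases. None was called by limma, against 1.68% of all tested genes, so 0 of 11 does not set the list apart. At an unadjusted limma p under 0.05 there were 4, against 4254 of all 15268 tested genes. The median was -0.02. The Toll-like receptors Tlr2 and Tlr3 were at 0.97 and 0.91 (limma adjusted p = 0.075 and 0.083). The interleukin 1 receptor Il1r1 was at -1.54 but differed between the arrays, at -0.80 and -2.28 (adjusted p = 0.12). The kinase Irak1 was at -0.47 (adjusted p = 0.14).

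Other antimicrobial proteins of mucosal surfaces were in part at background and in part measured in both fractions. Of 39 such genes, 22 were not well above background in any channel, among them Lyz1, Retnlb, Lcn2, Slpi, Camp, Ltf, S100a9 and the beta-defensins Defb1, Defb2 and Defb3. In CD133-positive cells 11 were above background on both arrays, and in CD133-negative cells 10. Ang, Ang4, Wfdc2, Saa1, Duox2, Lpo and Rnase4 were so in both fractions. The summed processed signal was 297000 and 316110 in CD133-positive cells of arrays 1 and 2, against 255190 and 293960 in CD133-negative cells. Of the 12 tested, limma called none, against 1.68% of all tested genes, so a count of 0 does not set this list apart. At an unadjusted limma p under 0.05 there were 2, against 4254 of all 15268 tested genes. The median was 0.17. Lypd8 had the largest mean, 2.96, from 4.16 on array 1 and 1.76 on array 2 (adjusted p = 0.094). The secreted phospholipase Pla2g10 was at 1.00 (adjusted p = 0.082). Its CD133-negative spots were not well above background on either array. Set against the lowest signal above background, or its own signal where brighter, Pla2g10 was 1.97-fold higher. The lysozyme Lyz2 was at 0.34 (adjusted p = 0.29) and Sprr2a1 at -0.56 (adjusted p = 0.20).

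Among other proteins with a C-type lectin domain, 1 rose. Of 60 on the array, 38 were at background in all channels and 18 were tested. Of these 1 was called, against 1.68% of all tested genes. It was the surfactant lectin Sftpd, at 1.67 ± 0.17 (SE, limma adjusted p = 0.045). Of the 18, 11 were below 0 on both arrays, against 6060 of all 15268 tested genes. The median of the 18 was -0.29. Taken relative to the median of all genes, that is -0.26, which turns to 0.23 when arrays are centred on the median of all probes in place of loess. The endocytic receptors Cd302, Ly75 and Mrc1 were at -1.51, -1.49 and -1.32 (limma adjusted p = 0.21, 0.10 and 0.18), each with a lower ratio on array 2.

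Of 24 gut and pancreas transcription factors, 18 were tested and 2 were called, against 1.68% of all tested genes. The median was 0.45. Above 0 on both arrays were 12 of the 18, against 4972 of all 15268 tested genes. Isx, an intestinal homeobox factor, was at 2.54 ± 0.19, and Spdef, a factor of goblet and other secretory cells, at 1.37 ± 0.14 (SE, limma adjusted p = 0.028 and 0.046). Neither was 4-fold lower on array 2 in CD133-positive cells, with differences of -0.34 and 0.05. Gata6 was at 1.80, Gata4 at 1.16 and Sox9, a progenitor and duct factor, at -1.38 (adjusted p = 0.059, 0.070 and 0.12). Ptf1a, the acinar factor, and Cdx1 were at background in all channels.

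**Figure D5:**
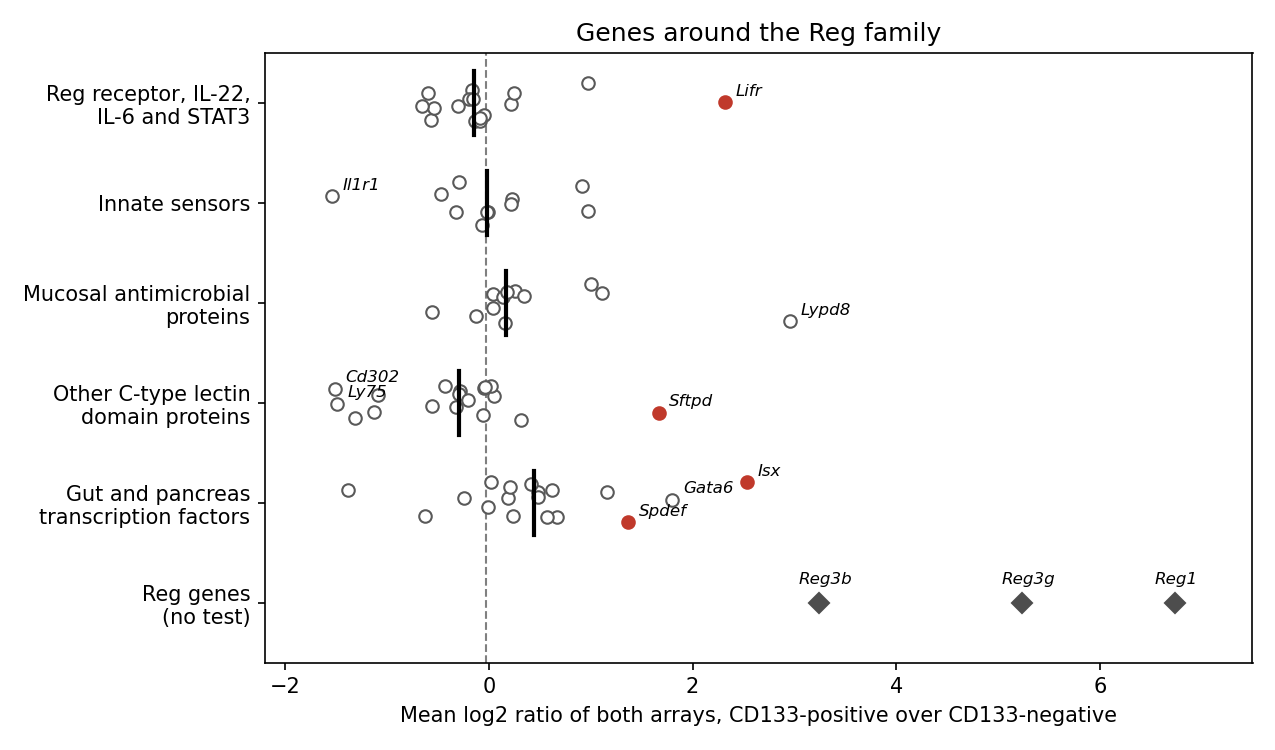
Mean log2 ratio of both arrays for the tested genes of 5 lists around the Reg family, 1 point per gene. Filled red points were called by limma, black bars are list medians and the dashed line is the median of all tested genes, -0.03. The Reg genes (diamonds, no test) at 3.25, 5.24 and 6.74 lie to the right of every tested gene of the lists.

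Genes next to the Reg genes on the chromosomes were nearer to 0. Beyond the chromosome 6 cluster, Suclg1 on one side was at 0.58 (limma adjusted p = 0.11), and Gcfc2 and Mrpl19 on the other at 0.47 and 0.50 (adjusted p = 0.21 and 0.13). Ctnna2, Lrrtm1 and Lrrtm4, the nearest genes to the cluster, were not tested. Around Reg4, Notch2 was at -0.46, Sec22b at -0.13, Phgdh at -0.36 and Zfp697 at -0.04 (limma adjusted p = 0.18, 0.69, 0.20 and 0.90), and Adam30 was not tested.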

How the data were processed

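Per the file headers, spot and local background values are each an intensity from Agilent's program Feature Extraction (version 9.5.3.1), and the deposited processed signals are an intensity after background subtraction and dye normalisation by that program. The deposited log10 ratio is that of CD133-negative over CD133-positive processed signals, per the file headers, and the value table of the series holds the same log10 ratios in all 45018 spots, within 1e-09 after conversion to log2. Other steps of the authors are not given in the sources used here.

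Spots were corrected by normexp (offset 50), normalised by loess within each array with control spots at weight 0, and turned into log2 ratios with the CD133-positive fraction on top, averaged over the spots of a probe. Probes were tested if well above background in 1 fraction on both arrays and not flagged as an outlier. This left 23173 of 41174 probes and 15268 genes, each represented by its brightest tested probe. Probes were named through a RefSeq table (22951 by accession and 9764 by symbol or synonym, while 8459 kept the name in the files). The mean ratio of both arrays was tested with limma 3.58.1 in R 4.3.3, two-sided, and p-values were adjusted by Benjamini-Hochberg over the tested genes, with a threshold of 0.05, and the fit was tested on simulated data. It had 1 residual and 2.87 prior degrees of freedom. At an unadjusted p under 0.05 there were 4254 genes. The number of arrays limits the precision.

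The Reg genes, the gene lists and the markers were chosen with earlier results of these data known. Named genes were the Reg genes, called list genes, the 4 largest of each list with the same direction on both arrays, the 4 genes nearest to each tested Reg gene, and 3 chromosomal neighbours on each side, of which 1 is not reported here. Genes of the signalling list and of the antibacterial, marker and transcription factor lists named for their role, and the genes with large differences between the arrays, were chosen after their values were seen. Promoters were searched in both strands for each motif and aligned globally in pairs (match 1, mismatch -1, gap opening -3, gap extension -0.5). Alternatives were other background corrections, signals, normalisations, filters, probe choices, variance models and each array alone.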

Additional observations from a re-analysis of the deposited data

How the results depend on the processing

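All 3 tested Reg genes were at least 2-fold higher on both arrays under the alternatives run, except that 1 (Reg3g) remained tested, and so counted, when both fractions had to be above background. With each array alone the log2 ratio ranged from 5.12 to 8.36 for Reg1, from 1.78 to 4.71 for Reg3b and from 4.71 to 5.77 for Reg3g, and the count was 3. With the processed signals, and with the value table, the means were 10.14 for Reg1, 6.73 for Reg3b and 6.18 for Reg3g, and with median centring over all probes 4.44 for Reg3g. That centring moved the median of all tested genes to -0.70 and -0.76.

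Of 256 called genes (83.6% higher) there were 399 without background correction (71.2% higher), 548 with an offset of 16 (72.6%), 484 with the processed signals or the value table (80.6%), 10107 with median centring (4.79%), 509 with scaling between arrays (62.3%), 30 with no filter on dim probes (100%) and 837 with an intensity trend (59.9%). Without moderation limma called 0, with 1506 at an unadjusted p under 0.05. The genes called in the 5 lists, 4 in all, were 7 with an offset of 16, the processed signals or the value table, 43 with median centring, 8 with the trend, and 0 with no filter or without moderation. Each array pairs the fractions as a replicate block; with no replicate block, the 4 channels as separate samples, 1032 genes (51.4% higher) and 9 list genes were called. The cause of these changes was not tested. Ratios of Reg1 and Reg3b are limited by CD133-negative spots near background, and 1 dye orientation and 2 arrays limit all values.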
